A study of Mus musculus with 4 samples.

Results

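The tumour necrosis factor (TNF) superfamily was described through 8 genes, 4 ligands (Tnfsf8, Tnfsf10, Tnfsf11 and Cd40lg) and 4 receptors (Tnfrsf4, Tnfrsf9, Tnfrsf18 and Cd27). They were chosen by name, and each had 1 array row that named it alone. In all, 19752 genes had such a row. Expression was measured on 4 microarrays of CD4+ T cells, which were isolated by negative selection from spleens of male C57BL/6 mice aged 6 weeks. All cells had been activated with CD3/28 beads for 48 h, and the compared groups were baseline (2 arrays, untreated), IFNa for 2 h (1 array) and IFNa for 8 h (1 array), with interferon alpha at 100 U/ml. Their labels name no mouse or culture, so the spread between the 2 baseline arrays may be technical. An IFNa array had no replicate of its own, so p-values rest on that spread, moderated by a prior estimated over all tested genes. The prior carried most of the weight (7.46 degrees of freedom, against 1 for the gene's own spread). Untreated cells cultured for a further 2 h or 8 h were not analysed here, and the effect of IFNa and that of time therefore cannot be told apart. A preparation note of both IFNa samples also mentions JAK inhibitors as an option, while their cytokine label names IFNa alone.

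Ligands of the TNF superfamily are mostly membrane-bound proteins that assemble as trimers and cluster their receptors on a neighbouring cell. Most receptors recruit TRAF adaptor proteins and activate NF-kB, a family of transcription factors, while those with a death domain can start apoptosis. On activated CD4 T cells the ligands act outward on other cells, as when CD40 ligand licenses B cells, and receptors such as OX40 and GITR receive costimulatory signals that prolong the response.

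All 8 genes lay above the array's median on all 4 arrays, so none passed the filter on dim genes only through the group where it was high. The deposited intensities are RMA values on a linear scale. The array medians ran from 176 to 199, but the arrays differed in spread. The upper quartile was 669 and 730 at baseline, 769 after 2 h and 574 after 8 h. The lower quartile was 81.8 and 70.1 at baseline, 66.8 after 2 h and 87.8 after 8 h. The part of this spread in the values of the 8 genes was not tested. Differences below are on the log2 scale, with the moderated standard error (SE) of limma and p-values adjusted by the Benjamini-Hochberg method over 10699 tested genes, and a gene is said to rise or fall where the adjusted p was under 0.05. Over all tested genes the 2 h difference had a median of 0.06, the 8 h difference one of −0.16, and 8 h against 2 h one of −0.25. Precision is limited by the number of arrays. Of 6 CD4 T cell markers 5 had a row, among them Cd3e and Cd4, and all 5 lay above the median. Cd4 itself differed between the baseline arrays (3242 and 5533). In bulk RNA of this kind, fewer cells of a type and less RNA per cell cannot be told apart. Each of 8 interferon-induced control genes rose at both times, with a median of 3.16 at 2 h and 3.12 at 8 h. Of these 8, Rtp4, Ifit3, Rsad2, Oasl2 and Mx1 passed the filter on dim genes only through the IFNa arrays and so had to differ, and the list is a description.

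Promoter windows from RefSeq (250 bases before to 50 after the start, build GRCm38.p6) were found for 7 of the 8 genes, 2 of them for Tnfrsf9, and not for Cd40lg. They were searched on both strands for the interferon-stimulated response element (GAAA, NN, GAAA), the interferon regulatory factor (IRF) core AANNGAAA, the STAT site TTCNNNGAA, the NF-kB consensus and the AP-1 site TGANTCA, of which the first contains the second. The IRF core was found in 4 of the 7 genes (Tnfsf8, Tnfsf10, Tnfrsf4 and the first window of Tnfrsf9). Among all genes with a window, 7207 of 27025 held it, in 23.9% of all 32851 windows. No window of the 7 genes held the full response element, which 3.44% of all windows held, and those of Tnfsf11 and Cd27 held none of the 5 motifs. These matches are a description of letters in the windows. The windows of Tnfsf8, Tnfsf10, Tnfrsf9 (the second) and Cd27 are printed with these genes, 5′ to 3′, with matches in capitals.

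**Figure D1:**
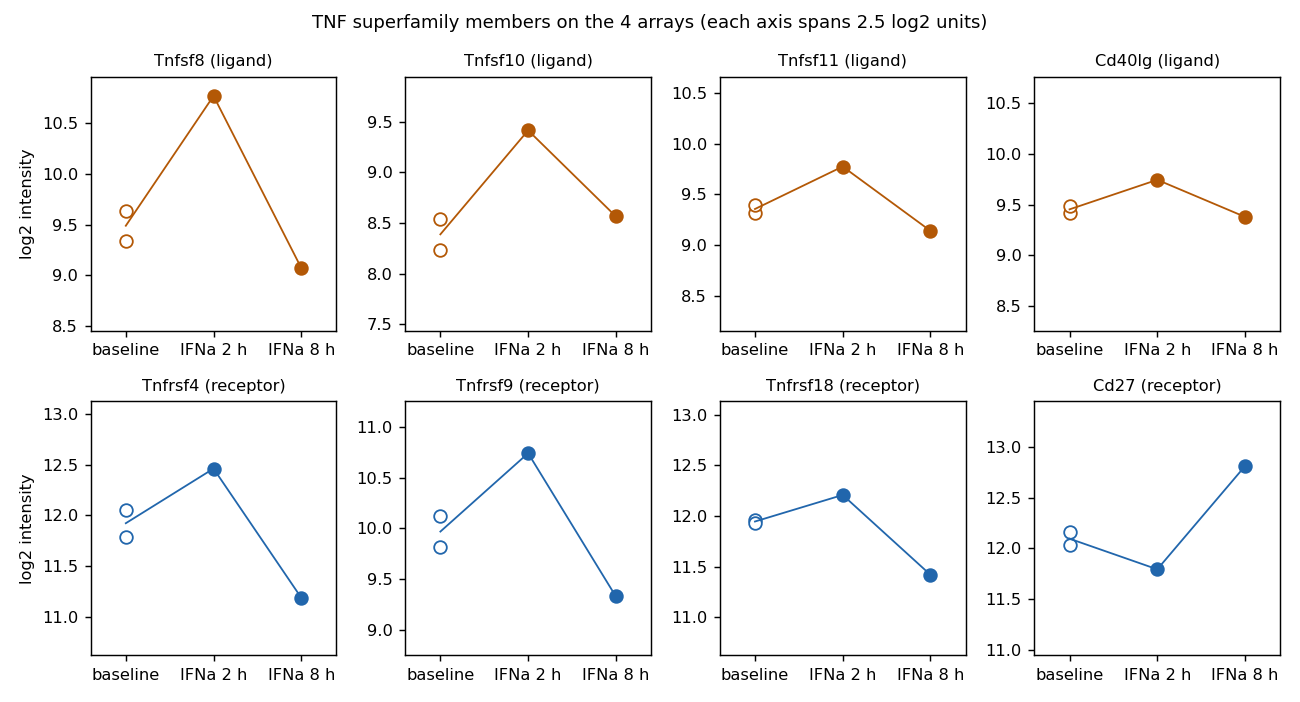
Log2 intensity of the 4 ligands (upper row) and 4 receptors (lower row) at baseline (2 open points), after 2 h and after 8 h of IFNa (1 filled point each), with lines through the baseline mean. At 2 h, 7 genes lay above both baseline arrays and Cd27 below, and at 8 h Cd27 stood alone among the receptors above baseline.

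Tnfsf8, the ligand of CD30, had intensities of 649 and 797 at baseline, 1747 after 2 h and 539 after 8 h. The 2 h array stood above both baseline arrays and the 8 h array below both. Tnfsf8 rose 2.43-fold at 2 h (log2 difference 1.28, SE 0.22, adjusted p = 0.0343, 1 array against 2), and 0.897% of tested genes had a larger difference. At 8 h its difference was −0.42 (SE 0.22, adjusted p = 0.273), and between the times it fell 3.24-fold at 8 h against 2 h (−1.70, SE 0.25, adjusted p = 0.0117). Tnfsf8 was the 1 gene of the 8 that passed at 2 h, while 1.09% of all tested genes were called higher and 0.00935% lower. The call at 2 h ended with no filter on dim genes (adjusted p = 0.0752) and with a stricter filter (0.0527). The promoter window of Tnfsf8, the gene called at both 2 h and between the times, has its IRF core match 103 bases before the start.
Tnfsf8, chr4:63861235-63861534, minus strand: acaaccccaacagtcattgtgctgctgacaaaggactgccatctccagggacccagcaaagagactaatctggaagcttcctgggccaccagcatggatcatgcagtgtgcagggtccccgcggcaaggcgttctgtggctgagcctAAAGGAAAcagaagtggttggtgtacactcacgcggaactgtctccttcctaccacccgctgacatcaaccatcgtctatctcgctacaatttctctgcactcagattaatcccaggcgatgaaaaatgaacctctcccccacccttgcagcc

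Tnfsf10 encodes TRAIL, a death ligand that acts through receptors with a death domain and is known as an interferon target in many cell types. Its intensities were 302 and 372 at baseline, 682 after 2 h and 379 after 8 h. Here too the 2 h array was highest, while the 8 h array lay just above the higher baseline array. The 2 h difference was 1.03 (SE 0.22, adjusted p = 0.0856), and 1.65% of tested genes had a larger one. It did not pass, but passed after quantile normalization (0.90, adjusted p = 0.00562) and with arrays centred on their medians (1.13, adjusted p = 0.00666). At 8 h the difference was 0.18 (SE 0.22, adjusted p = 0.649), with a 95% interval of −0.33 to 0.68, and for 8 h against 2 h it was −0.85 (SE 0.25, adjusted p = 0.059). The Tnfsf10 window, shown for the interferon target among the ligands, has 2 IRF core matches, which begin 53 and 30 bases before the start.
Tnfsf10, chr3:27316827-27317126, plus strand: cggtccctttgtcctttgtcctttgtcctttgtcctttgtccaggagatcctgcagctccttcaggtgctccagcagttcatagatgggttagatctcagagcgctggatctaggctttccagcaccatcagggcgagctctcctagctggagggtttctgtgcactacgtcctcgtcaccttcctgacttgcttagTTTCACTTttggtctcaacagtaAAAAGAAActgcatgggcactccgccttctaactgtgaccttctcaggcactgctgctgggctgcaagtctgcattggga

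Tnfsf11 encodes RANK ligand, known for driving osteoclast formation and lymph node development. Its intensities were 636 and 675 at baseline, 875 after 2 h and 564 after 8 h. The baseline arrays lay close together, with the 2 h array above and the 8 h array below them. None of its differences passed: 0.42 (SE 0.20, adjusted p = 0.458) at 2 h, −0.22 (SE 0.20, adjusted p = 0.533) at 8 h and −0.63 (SE 0.23, adjusted p = 0.0941) for 8 h against 2 h. After quantile normalization the 8 h difference had the opposite sign, at 0.07.

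Cd40lg, the ligand through which T cells activate B cells and dendritic cells, had intensities of 684 and 719 at baseline, 858 after 2 h and 666 after 8 h. It had the same order of arrays as Tnfsf11, with smaller steps. The differences were 0.29 (SE 0.20, adjusted p = 0.587) at 2 h, −0.07 (SE 0.20, adjusted p = 0.85) at 8 h and −0.37 (SE 0.23, adjusted p = 0.285) for 8 h against 2 h. The 95% interval at 8 h ran from −0.54 to 0.39. After quantile normalization the sign turned at 8 h (0.21) and for 8 h against 2 h (0.06), so no direction is given for Cd40lg there.

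Tnfrsf4, or OX40, is a costimulatory receptor induced by T cell activation. Its intensities were 3539 and 4250 at baseline, 5635 after 2 h and 2330 after 8 h. The 2 h array lay above and the 8 h array below both baseline arrays, by more than these differed from each other. Against baseline the differences did not pass, at 0.54 (SE 0.22, adjusted p = 0.383) for 2 h and −0.74 (SE 0.22, adjusted p = 0.096) for 8 h. Tnfrsf4 fell 2.42-fold at 8 h against 2 h (−1.27, SE 0.25, adjusted p = 0.0219). In the gene table used for names, Sdf4 overlaps Tnfrsf4 by 16 bases, and Sdf4 stood at −0.63 (SE 0.27, adjusted p = 0.131) in the same comparison.

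Tnfrsf9, the costimulatory receptor CD137, had intensities of 904 and 1112 at baseline, 1713 after 2 h and 643 after 8 h. Its arrays stood in the same order as those of Tnfrsf4. The difference was 0.77 (SE 0.22, adjusted p = 0.207) at 2 h and −0.64 (SE 0.22, adjusted p = 0.133) at 8 h, neither of which passed. Tnfrsf9 fell 2.66-fold at 8 h against 2 h (−1.41, SE 0.25, adjusted p = 0.0182), and 2.41% of tested genes had a lower difference. Its second window, shown because it held the most matches, has 2 overlapping NF-kB matches, an AP-1 match and a STAT match, which 4.51%, 7.81% and 8.3% of all windows held.
Tnfrsf9, chr4:150927749-150928048, plus strand: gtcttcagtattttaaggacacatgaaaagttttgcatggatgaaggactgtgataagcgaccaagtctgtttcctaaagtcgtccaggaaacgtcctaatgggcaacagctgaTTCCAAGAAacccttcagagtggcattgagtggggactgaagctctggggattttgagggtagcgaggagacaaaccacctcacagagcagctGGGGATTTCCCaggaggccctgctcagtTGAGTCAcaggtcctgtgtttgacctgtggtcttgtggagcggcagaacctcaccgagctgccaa

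Tnfrsf18 encodes GITR, a costimulatory receptor that is abundant on regulatory T cells. Its intensities were 3970 and 3914 at baseline, 4726 after 2 h and 2739 after 8 h. The baseline arrays almost coincided, with the 2 h array above and the 8 h array below. Its differences did not pass, at 0.26 (SE 0.20, adjusted p = 0.62) for 2 h, −0.53 (SE 0.20, adjusted p = 0.163) for 8 h and −0.79 (SE 0.23, adjusted p = 0.0571) for 8 h against 2 h. The last passed with arrays centred on their medians (−0.97, adjusted p = 0.0245) and with an intensity trend in the variance prior (adjusted p = 0.0322). The regulatory T cell markers Foxp3 and Ikzf2 stood at 0.24 and 0.12 for 8 h against 2 h, and the third, Il10, which lay under the median on all arrays and was not tested, at −1.14. The summed intensity of the 3 markers, all with a row, was 1256 and 1364 at baseline, 1319 after 2 h and 1416 after 8 h. Their part in the values of Tnfrsf18 was not tested. In the gene table Tnfrsf18 overlaps Gm16008 by 2573 bases, and it is the neighbour of Tnfrsf4 among protein-coding genes.

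Cd27, the receptor of CD70, is carried by resting and memory T cells. It differed in pattern from the other 7 genes, with intensities of 4193 and 4574 at baseline, 3552 after 2 h and 7194 after 8 h. The 2 h array was the lowest and the 8 h array the highest, both outside the baseline arrays. Cd27 rose 2.03-fold at 8 h against 2 h (1.02, SE 0.24, adjusted p = 0.0331), and 0.692% of tested genes had a larger difference. Against baseline it stood at −0.30 (SE 0.20, adjusted p = 0.584) at 2 h and 0.72 (SE 0.20, adjusted p = 0.09) at 8 h. The call between the times ended with no filter on dim genes (adjusted p = 0.0685) and with centred arrays (0.84, adjusted p = 0.0543), and the 8 h difference from baseline passed after quantile normalization (0.75, adjusted p = 0.0103) and with an intensity trend (adjusted p = 0.0419). Cd27 overlaps E130112N10Rik, a gene that had no row that named it alone. Of 5 B cell markers 4 had a row, and their summed intensity was 2165 and 2185 at baseline, 2099 after 2 h and 2776 after 8 h. All 4 stood above the baseline mean at 8 h, Ms4a1 most (0.75, SE 0.21, adjusted p = 0.0882), while Cd79a (347) lay between the baseline arrays (267 and 354). Whether those cells contribute to the Cd27 value was not tested. The Cd27 window is shown as the one of the gene that rose between the times, and it held no match.
Cd27, chr6:125236978-125237277, minus strand: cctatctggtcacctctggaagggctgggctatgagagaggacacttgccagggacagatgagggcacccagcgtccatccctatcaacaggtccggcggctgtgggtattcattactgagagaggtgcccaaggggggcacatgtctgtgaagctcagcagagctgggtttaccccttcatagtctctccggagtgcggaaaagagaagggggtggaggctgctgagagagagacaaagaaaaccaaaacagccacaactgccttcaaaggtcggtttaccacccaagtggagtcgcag

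**Figure D2:**
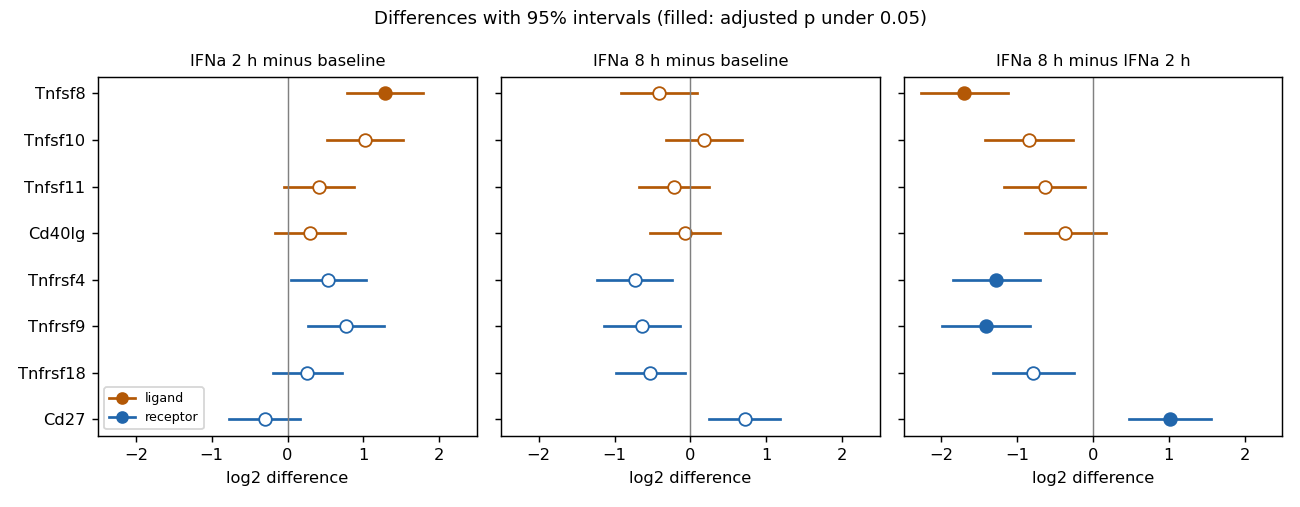
Log2 differences of the 4 ligands and 4 receptors for 2 h minus baseline, 8 h minus baseline and 8 h minus 2 h, with 95% intervals of the limma fit (filled where the adjusted p was under 0.05). Tnfsf8 is filled at 2 h, no gene at 8 h, and Tnfsf8, Tnfrsf4, Tnfrsf9 and Cd27 between the times.

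At 8 h against baseline none of the 8 genes passed, while 0.654% of all tested genes were called higher and 3.35% lower. There 4 of the 8 had an unadjusted p under 0.05 (limma), against 24.6% of all tested genes. For 8 h against 2 h, 3 of the 8 genes fell (Tnfsf8, Tnfrsf4 and Tnfrsf9) and 1 rose (Cd27), while 10.8% of tested genes were called lower and 1.46% higher. The same 3 genes were at least 2-fold lower and Cd27 at least 2-fold higher, which held for 8.65% and 0.748% of all tested genes. That comparison sets 1 array against 1 and uses the baseline arrays only for the spread. The mean of both IFNa times against baseline gave no call among the 8, while 0.645% of all tested genes were called higher and 0.262% lower. Here 2 of the 8 had an unadjusted p under 0.05 (limma), against 9.99% of all tested genes. These were Tnfsf8 (0.43, SE 0.18) and Tnfsf10 (0.60, SE 0.18). Both comparisons with baseline share its arrays.

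In 6 of the 8 genes, Tnfsf10 and Cd27 being the exceptions, the 2 h array lay above both baseline arrays and the 8 h array below both. This held for 28.6% of all tested genes. The count depends on the scaling: after quantile normalization, a check of this count chosen after seeing the data, it was 4 of the 8, without Tnfsf11 and Cd40lg, and 16.8% of all tested genes. Counted singly, the 2 h array lay above both baseline arrays in 7 of the 8 genes (44.5% of all tested genes) and below both in Cd27 (33.0%). The 8 h array lay below both in 6 (55.9%) and above both in Tnfsf10 and Cd27 (24.4%), and the opposite order to that of the 6 genes, held by Cd27, was found in 13.2% of all tested genes. The 8 h array was lower than the 2 h array in 7 of the 8 (6 after quantile normalization, without Cd40lg), and in 67.9% of all tested genes. Baseline replicate 2 was also higher than baseline replicate 1 in 7 of the 8 genes, all but Tnfrsf18, and in 67.5% of all tested genes. The gap between the baseline arrays was widest for Tnfsf10 (0.30), Tnfrsf9 (0.30), Tnfsf8 (0.30) and Tnfrsf4 (0.26) on the log2 scale. Taken from baseline replicate 1 alone, the 2 h difference of Tnfsf8 was 1.43, and from replicate 2 alone 1.13. For Tnfsf10 these values were 1.18 and 0.88, and for Tnfrsf9 they were 0.92 and 0.62.

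**Figure D3:**
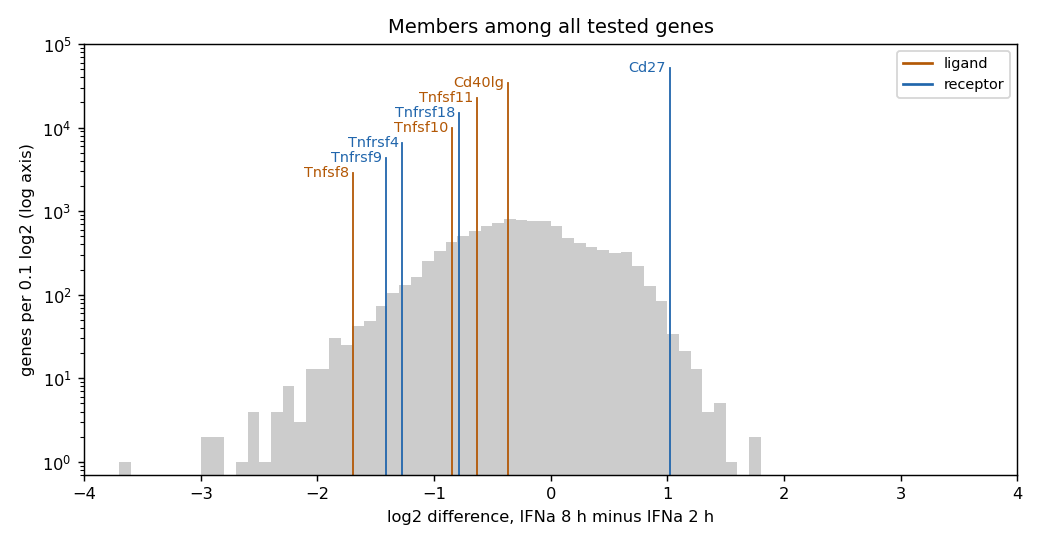
Distribution of the log2 difference of 8 h minus 2 h over the 10699 tested genes (grey, log axis), with the 4 ligands and 4 receptors marked by lines whose height carries no value. Tnfsf8 (−1.70), Tnfrsf9 (−1.41) and Tnfrsf4 (−1.27) lie in the lower tail, and Cd27 (1.02) in the upper.

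Ligands and receptors were compared by the median of their log2 differences, without a test, since genes are not replicates. At 2 h the 4 ligands had a median of 0.72 (range 0.29 to 1.28) and the 4 receptors one of 0.40 (−0.30 to 0.77), so that the ligands' median was 0.32 higher. The ranges overlapped. At 8 h the ligands' median was −0.14 (−0.42 to 0.18) and the receptors' −0.58 (−0.74 to 0.72), 0.44 apart. Without Cd27 the receptors' median was 0.54 at 2 h and −0.64 at 8 h. The 8 h range of the remaining 3 receptors (−0.74 to −0.53) then lay below that of the ligands. Cd27 was the 1 receptor above baseline at 8 h, and leaving it out was not planned. From baseline replicate 2 alone these ranges overlapped, with Tnfsf8 at −0.56 and Tnfrsf18 at −0.52. From replicate 1 alone they did not, with Tnfsf8 at −0.27 and Tnfrsf9 at −0.49. For 8 h against 2 h the medians were −0.74 for ligands and −1.03 for receptors, with Tnfsf8 below every receptor and Cd27 above every ligand. Between the baseline arrays the medians were 0.19 for both.

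The patterns of the genes were compared by the root mean square distance of their 4 log2 values after each gene's own mean was taken off. Among the 8, Tnfsf11 and Cd40lg were closest (0.10), followed by Tnfrsf4 and Tnfrsf9 (0.10) and by Tnfsf11 and Tnfrsf18 (0.13). Tnfsf8 and Cd27 were farthest apart (0.97). The nearest genes were sought among 10280 tested genes, leaving out names that began with Gm and a digit, Olfr or LOC, or ended in Rik. Hivep1 (0.02) and Rgs1 (0.05) lay nearest to Tnfsf8, Vps37b (0.03) and Irf2bp2 (0.04) to Tnfsf10, and Sntb1 (0.02) and Arhgef18 (0.03) to Cd27. Hivep1 stood at 1.32 at 2 h and −0.39 at 8 h, and Sntb1 at −0.31 and 0.68. Kbtbd8 and Naa16 (0.02 each) lay nearest to Tnfrsf9, and Sytl3 (0.01) and Nipsnap3b (0.02) to Tnfrsf4. B3glct (0.01) and Rnaseh1 (0.02) were nearest to Tnfsf11, Atp5h and Rabgef1 (0.01 each) to Cd40lg, and Ube2cbp (0.01) and Rrbp1 (0.02) to Tnfrsf18. With 4 arrays many genes share such a pattern, and the distance is a description.

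The binding partners of the 8 genes were mostly dim. Of 9 partners 6 lay under the array's median on all 4 arrays and were not tested: Tnfrsf11a and Tnfrsf11b, the receptor and decoy receptor of RANK ligand, and Tnfsf4, Tnfsf9, Tnfsf18 and Cd70, the ligands of OX40, CD137, GITR and CD27. Tnfsf4 had intensities of 47.3 and 56.7 at baseline, 85.3 after 2 h and 73.9 after 8 h, and Cd70 of 76.3 and 58.9, 54.6 and 70.3. Tnfrsf8, the CD30 receptor bound by Tnfsf8, had 457 and 554 at baseline, 763 after 2 h and 380 after 8 h. Its arrays thus stood in the same order as those of its ligand. Tnfrsf8 fell at 8 h against 2 h (−1.01, SE 0.25, adjusted p = 0.0391), a call that ended after quantile normalization (−0.61, adjusted p = 0.0603) and with no filter on dim genes (adjusted p = 0.0787). Tnfrsf10b, the mouse TRAIL receptor with a death domain, had 453 and 448 at baseline, 429 after 2 h and 257 after 8 h, with a difference of −0.81 (SE 0.20, adjusted p = 0.0622) at 8 h, which passed after quantile normalization (adjusted p = 0.0153) and with centred arrays (0.035). Cd40 stood at 0.29 (SE 0.20, adjusted p = 0.585) at 2 h and 0.13 (SE 0.20, adjusted p = 0.72) at 8 h.

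Of 14 further ligands, partners included, 12 had a row and 5 were tested. At 2 h 1 rose, Fasl, the ligand of the death receptor Fas (1.45, SE 0.20, adjusted p = 0.0131), which passed the filter only through the 2 h array, where its intensity was 297, against 107 and 110 at baseline. Since the filter used that array, the rise of Fasl at 2 h is a description. At 8 h 2 fell. Of all tested genes 1.09% were called higher at 2 h and 3.35% lower at 8 h. Lta, which encodes lymphotoxin alpha, had 610 and 602 at baseline, 592 after 2 h and 181 after 8 h, so that the 8 h array stood apart from the other 3 (−1.74 at 8 h, SE 0.20, adjusted p = 0.00451). Tnf, the founding cytokine of the family, had 1205 and 1537 at baseline, 1865 after 2 h and 551 after 8 h, below both baseline arrays (−1.30, SE 0.23, adjusted p = 0.0233, and 0.0518 with no filter on dim genes). For 8 h against 2 h these 3 fell, Tnf by 1.76 on the log2 scale, Lta by 1.71 and Fasl by 1.43. For Fasl this too is a description. The median of the 5 was 0.45 at 2 h, 0.02 at 8 h and −1.43 between the times. The values at 8 h and between the times are those of Fasl itself, so they depend on the filter.

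Of 24 further receptors, partners included, 17 were tested. At 2 h Tnfrsf23, a mouse decoy receptor of TRAIL, rose (1.25, SE 0.20, adjusted p = 0.0261, and 0.0579 with no filter on dim genes). It lay above the array median only on the IFNa arrays and passed the filter through them alone, so its rise is a description. At 2 h 1.09% of all tested genes were called higher. At 8 h none passed (limma, 6 at an unadjusted p under 0.05, against 24.6% of all tested genes). Tnfrsf10b at −0.81 and Tnfrsf26 at 0.75 had the largest differences. Both passed after quantile normalization, where Tnfrsf26 stood at 0.93. For 8 h against 2 h 2 fell, Tnfrsf8 and Tnfrsf1b, the TNF receptor of activated lymphocytes. Tnfrsf1b had intensities of 727 and 932 at baseline, 1653 after 2 h and 809 after 8 h, with the 2 h array highest (−1.03, SE 0.26, adjusted p = 0.0419, and 0.0828 with no filter and 0.052 with a stricter one). The median of the 17 receptors was 0.08 at 2 h, 0.08 at 8 h and −0.16 between the times. Among these further genes the ligands' median was thus the higher at 2 h only, while among the 8 genes it was the higher in each of these comparisons. Over both lists, 5 of 22 tested genes fell between the times and none rose, where 10.8% of all tested genes were called lower and 1.46% higher. The 5 include Fasl, which passed the filter only through the 2 h array, so its place in this count is a description.

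**Figure D4:**
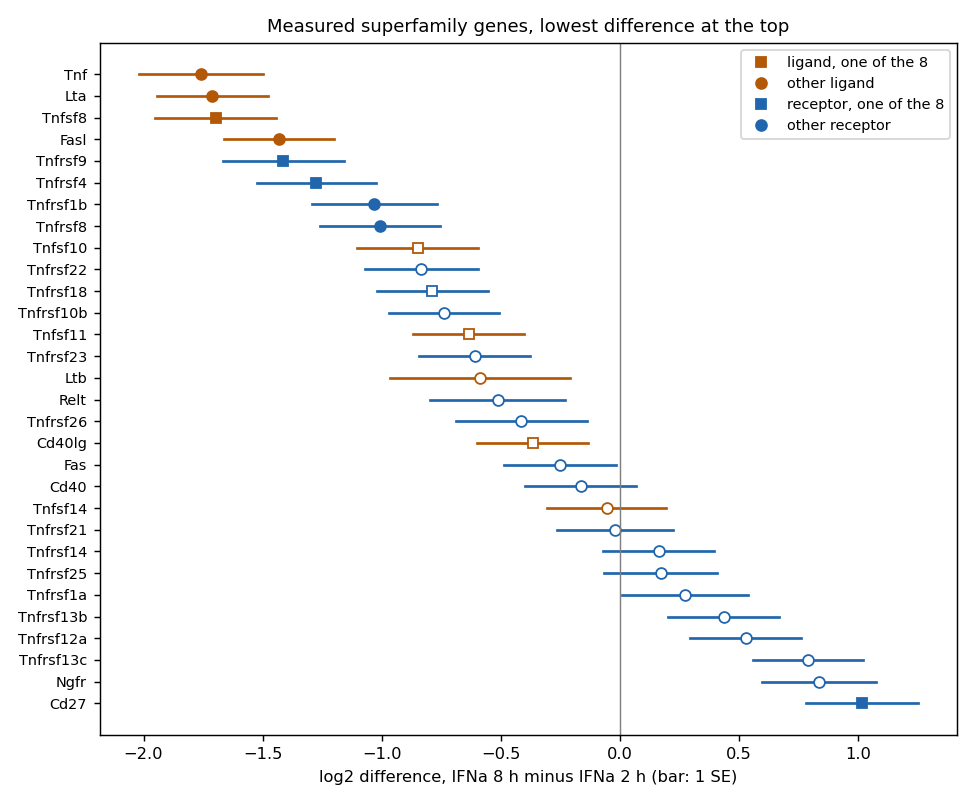
Log2 difference of 8 h minus 2 h for the 30 tested superfamily genes, lowest at the top, with squares for the 8 genes, circles for the others, bars of 1 SE and filled symbols where the adjusted p was under 0.05. Tnf, Lta, Tnfsf8, Fasl, Tnfrsf9, Tnfrsf4, Tnfrsf1b and Tnfrsf8 are filled below 0, and Cd27 alone above. Fasl passed the filter on dim genes only through the 2 h array.

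Downstream of the receptors, none of 14 measured adaptor and death complex genes (of 16 listed) passed at 2 h. Of these 14, 4 had an unadjusted p under 0.05 (limma), against 12.1% of all tested genes. The largest differences were those of Cflar, an inhibitor of caspase 8 (1.05, SE 0.23, adjusted p = 0.0921), and Traf6 (0.91, SE 0.24, adjusted p = 0.18). Both passed after quantile normalization (adjusted p of 0.00478 and 0.0209) and with centred arrays (0.00484 and 0.0252). None passed at 8 h (limma, 1 at an unadjusted p under 0.05, against 24.6% of all tested genes). Traf4 stood at −0.54 and Traf6 at −0.47. For 8 h against 2 h 3 fell, Traf6 (−1.37, SE 0.28, adjusted p = 0.0239), Cflar (−1.18, SE 0.27, adjusted p = 0.0313) and Traf2 (−1.05, SE 0.26, adjusted p = 0.0371), which binds most costimulatory receptors of the family. All 3 calls ended with no filter on dim genes (adjusted p of 0.051, 0.065 and 0.0757). Of all tested genes 10.8% were called lower for 8 h against 2 h. The list's median was 0.34 at 2 h, −0.09 at 8 h and −0.47 between the times.

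Among 13 measured NF-kB subunits and feedback genes, of 14 listed, 2 rose at 2 h, Relb (1.57, SE 0.26, adjusted p = 0.0316) and Nfkb2 (1.29, SE 0.23, adjusted p = 0.0417), whose products form the dimer of the alternative NF-kB pathway. Relb had intensities of 198 and 295 at baseline, 716 after 2 h and 253 after 8 h, so that the baseline arrays differed but the 2 h array stood above both. Both calls ended with no filter (adjusted p of 0.0665 and 0.0895) and with a stricter filter (0.0527 and 0.062). At 2 h 1.09% of all tested genes were called higher. None of the 13 passed at 8 h (limma, 2 at an unadjusted p under 0.05, against 24.6% of all tested genes). Bcl3 stood at −0.62 and Nfkbiz at −0.53. For 8 h against 2 h 5 of 13 fell: Relb (−1.50), Nfkb2 (−1.49), Bcl3 (−1.16), the inhibitor Nfkbia (−1.03) and the deubiquitinase Tnfaip3 (−0.87, adjusted p = 0.0472), which was named after its value was seen. The calls of Relb, Bcl3 and Nfkbia ended with no filter (adjusted p of 0.0513, 0.0551 and 0.0659). That of Tnfaip3 ended with no filter (0.0918), a stricter filter (0.0546), an intensity trend (0.0501) and quantile normalization (−0.44, adjusted p = 0.178). Of all tested genes 10.8% were called lower between the times. The list's median was 0.61 at 2 h, −0.15 at 8 h and −0.77 between the times.

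Of 14 T cell activation genes, all measured, 4 rose at 2 h (Nr4a1, Nr4a3, Egr2 and Nr4a2), 5 fell at 8 h (Il2, Nr4a3, Irf4 and Egr2, with Cd69 named after its value was seen) and 9 fell at 8 h against 2 h. Of all tested genes 1.09% were called higher at 2 h, 3.35% lower at 8 h and 10.8% lower between the times. The 8 h calls of Egr2 and Cd69 ended with no filter (adjusted p of 0.0894 and 0.0925) and with a stricter filter (0.0532 and 0.0534). Nr4a3, a nuclear receptor induced by antigen receptor signalling, had intensities of 952 and 929 at baseline, 2962 after 2 h and 237 after 8 h, the lowest value at 8 h and the highest at 2 h. Il2, the T cell growth cytokine, had 898 and 600 at baseline, 1189 after 2 h and 156 after 8 h. The list's median was 0.86 at 2 h, −0.47 at 8 h and −1.49 between the times. Their part in the values of the 8 genes was not tested.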

How the data were processed

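RNA of 4 samples was hybridised to Affymetrix Mouse Gene 1.0 ST arrays, 1 sample per array. Per the submitters' processing notes, RMA in Affymetrix Power Tools (versions not given in the sources used here) gave the deposited intensity values. These are on a linear scale. RMA keeps some unspecific signal, so folds of dim genes are understated. Of 24922 rows, 21425 had 1 gene symbol, and the 1399 with several and 2098 with none were left out. Symbols were checked against RefSeq genes of GRCm38.p6, and 78 without a match were kept as given. A gene with several rows (921 genes) was taken from the row with the highest mean.

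Log2 intensities, with no pseudocount, of genes above the array's median on at least 1 array (10699, with 9053 put aside) were fitted with limma 3.58.1 in R 4.3.3, with 1 mean per group, moderated variances (eBayes) and two-sided tests at an adjusted p under 0.05. The spread had 1 residual degree of freedom and a prior of 7.46, and the prior SD was 0.175. The fit was tested on simulated data with independent noise drawn from the fitted prior. These data held no difference in spread between arrays, so that test does not cover such differences. Alternatives were quantile normalization, centring, no or a stricter filter, the mean of rows, other variance priors, an adjusted p under 0.1, 2 groups in the model and leaving out each baseline array.

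The 8 genes, the lists and the tests were chosen with earlier results of these data known. The rule for named genes took the 8 genes, their 9 partners, up to 4 called genes per list and comparison (or 2 as values) and the 2 nearest patterns of each of the 8. Marker lists of other cells are given in the closing section.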

Additional observations from a re-analysis of the deposited data

Results flagged for a closer look

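The effect at 8 h differed from that at 2 h, tested as the limma contrast of the 2 IFNa times (adjusted p under 0.05, 1 array against 1), in 9 superfamily genes. Among the 8 genes described these were Tnfsf8 (−1.70 on the log2 scale), Tnfrsf9 (−1.41), Tnfrsf4 (−1.27) and Cd27 (1.02). Among the further ligands and receptors they were Tnf (−1.76), Lta (−1.71), Fasl (−1.43), Tnfrsf1b (−1.03) and Tnfrsf8 (−1.01). Fasl passed the filter on dim genes only through the 2 h array, so its fall is a description. Tested were the 8 genes and 22 further superfamily genes. Over all tested genes 10.8% were called lower and 1.46% higher.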

How the results depend on the processing

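The 4 calls for 8 h against 2 h were also 4 after quantile normalization, with the stricter filter, the mean of rows and a robust prior, 5 with centred arrays and with an intensity trend, 3 with no filter, and 7 at an adjusted p under 0.1. Tnfsf8, Tnfrsf4 and Tnfrsf9 were among them in each case, with adjusted p of at most 0.0265, 0.0474 and 0.0393. At 2 h the 1 call became 2 after quantile normalization, with centred arrays and at an adjusted p under 0.1, and 0 with no filter or the stricter one. At 8 h against baseline 0 became 2 (Tnfrsf4 lower and Cd27 higher) after quantile normalization and at an adjusted p under 0.1, and 1 (Cd27) with an intensity trend. For the mean of both times 0 became 1 (Tnfsf10) after quantile normalization. The ligands' median minus the receptors' was 0.29 at 2 h and 0.53 at 8 h after quantile normalization, and ran from 0.29 to 0.36 at 2 h and from 0.41 to 0.47 at 8 h without one or the other baseline replicate. After quantile normalization the sign turned for Tnfsf11 at 8 h (0.0697) and for Cd40lg at 8 h (0.21) and for 8 h against 2 h (0.0608), and with centred arrays for Tnfrsf10b at 2 h (0.0279). The cause was not tested. Quantile normalization moved the median of all tested genes to −0.01 at 2 h and 0.00 at 8 h, and centring to 0.15 and −0.24. For 8 h against 2 h the median was −0.25 as reported, 0.00 after quantile normalization and −0.43 with centred arrays. Calls over all genes for 8 h against 2 h numbered 1311 as reported, 2300 after quantile normalization and 2387 with centred arrays. Without a baseline replicate no residual degree of freedom is left, so no test could be made. No paired analysis was possible because the groups share only replicate number 1.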

Other observations

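The 3 neighbouring receptor genes of mouse chromosome 7, Tnfrsf26, Tnfrsf22 and Tnfrsf23, differed in their values. Tnfrsf22 and Tnfrsf23 encode decoy receptors of TRAIL in the mouse, and the 3 genes are close relatives, so their probes may share signal. Tnfrsf22 was chosen after its values were seen. Tnfrsf23 had intensities of 170 and 163 at baseline, 395 after 2 h and 259 after 8 h, and Tnfrsf26 of 749 and 1008 at baseline, 1951 after 2 h and 1465 after 8 h. In both genes both IFNa arrays lay above both baseline arrays. Tnfrsf23 passed the filter on dim genes only through the IFNa arrays, so its rise given below is a description. Tnfrsf22 had 585 and 643 at baseline, 746 after 2 h and 419 after 8 h, with the 8 h array below baseline. In the mean of both times Tnfrsf23 rose (0.94, SE 0.16, adjusted p = 0.0432), which ended with no filter (0.098), with the stricter filter (0.0624) and with both IFNa arrays as 1 group (1.0). Tnfrsf26 stood at 0.96 (SE 0.19, adjusted p = 0.0848).

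Ltb, which encodes lymphotoxin beta, had intensities of 1044 and 1910 at baseline, 2823 after 2 h and 1879 after 8 h, so that the baseline arrays differed by 0.87 on the log2 scale. Of the markers of other cells, both CD8 T cell markers were tested, and their summed intensity was 1112 and 1001 at baseline, 921 after 2 h and 1191 after 8 h. The 6 macrophage and dendritic cell markers summed to 1011 and 869 at baseline, 739 after 2 h and 819 after 8 h, with Adgre1, Csf1r, Cd14 and Itgax under the median on all arrays. The 4 NK cell markers summed to 451 and 416 at baseline, 531 after 2 h and 380 after 8 h, with Eomes alone above the median on any array. For neutrophils and erythroid cells, 4 of 6 markers had a row and summed to 469.8 and 458 at baseline, 444 after 2 h and 586 after 8 h. The part of these cells in the values above was not tested.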
